A study of Homo sapiens with 22 samples.

Results

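Cytokines, chemokines and proteins of the tumour necrosis factor (TNF) family are the secreted and membrane-bound signals that cells use to recruit and instruct other cells, and their receptors decide which cells can respond. The genes described here were those whose symbol begins with CCL, CXCL, CX3CL, CCR, CXCR or IL and a number, with CSF and a number, or with TNFSF or TNFRSF, and in addition LIF, LIFR, OSMR and TNFAIP3. Of the 2221 genes listed for 8 glioblastoma lines 29 met this rule, and of the 5383 genes listed for 3 further lines 54 did. In all these were 66 different genes of 6825, with 17 in both tables.

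The study measured poly(A) RNA of 11 untreated human glioblastoma cell lines by strand-specific RNA-seq, with 2 libraries per line. The first table holds KALS-1 and SNU-1105, grown in RPMI medium, KNS-42, LN-18 and LN-229, grown in DMEM, and T98G, U-138MG and U-87MG, grown in EMEM. The second holds A-172 in DMEM, AM-38 in EMEM and SNU-466 in RPMI medium. Serum was 20% for AM-38 and 10% for every other line. Each group is 1 established line without a non-tumour control. Neither medium nor serum can be told apart from line, and the higher serum was used for AM-38 alone. Whether a line's libraries were made from independent cultures is not stated. The p-values therefore rest on library-to-library spread, which can be purely technical. In such bulk RNA, fewer cells of a kind and less RNA per cell cannot be told apart.

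Most cytokines signal through a few shared routes. Interleukin 1 and TNF family receptors activate the transcription factor NF-kB, whose targets include the CXCL chemokines that attract neutrophils, while receptors for interleukin 6 type cytokines such as LIF share the subunit IL6ST and activate JAK and STAT proteins. In glioblastoma these signals are known for drawing myeloid cells into the tumour. Chemokine receptors, by contrast, couple to G proteins and steer migration.

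Levels are given as FPKM, reads per kilobase of gene length scaled to the library total, for library 1 and then library 2 of a line. Library totals were 17117491 to 21011463 reads for the 8 lines and 16958669 to 21213215 for the 3 lines. The 2 libraries of each line were compared over tested genes, leaving out those with few reads in that line. They lay within 1.5-fold of each other for 56.1% of these genes in T98G, 74.5% in SNU-1105 and 90.1% or more in the remaining lines. T98G values thus carry the widest error, and genes near 0 in a line are not covered by these shares. The tables were fitted apart and no test joins them. Each test used 1 spread per gene, estimated over all lines of the table, so its SE need not match the 2 lines compared. Lines said not to differ beyond their spread are judged by this pooled spread, and their libraries may still not overlap. A gene was called above (or below) every other line where it was higher (or lower) than each of them at a log2 fold change of at least 1 and an adjusted p under 0.05, from the edgeR quasi-likelihood test with Benjamini-Hochberg adjustment over all genes and all pairs of lines of the table.

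Of the 29 genes in the 8-line table, 27 passed the low-count filter and all 27 differed among lines, as did 99.7% of all genes tested there. A line stood above every other for 22 of the 27, beside 47.1% of all tested genes, and a line stood below every other for 4, beside 15%. Of the 54 genes for the 3 lines, 51 were tested and 50 differed, beside 98.3% of all tested genes, with 42 above every other line in some line (65% of all tested genes) and 35 below (62%). The tables themselves appear chosen on these samples: for 99.3% of the 2221 genes, all 29 genes described here included, the mean FPKM of the trio T98G, KALS-1 and LN-18 was at least 2-fold above or below that of the remaining 5 lines. Between SNU-466 and the other 2 lines of its table such a gap held for 93.9% of the 5383 genes and for 53 of the 54, of which 15 were higher and 38 lower in SNU-466, beside 2140 higher and 2917 lower of all listed genes. The counts are therefore descriptions of listed genes, not shares of all cytokine genes.

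**Figure D1:**
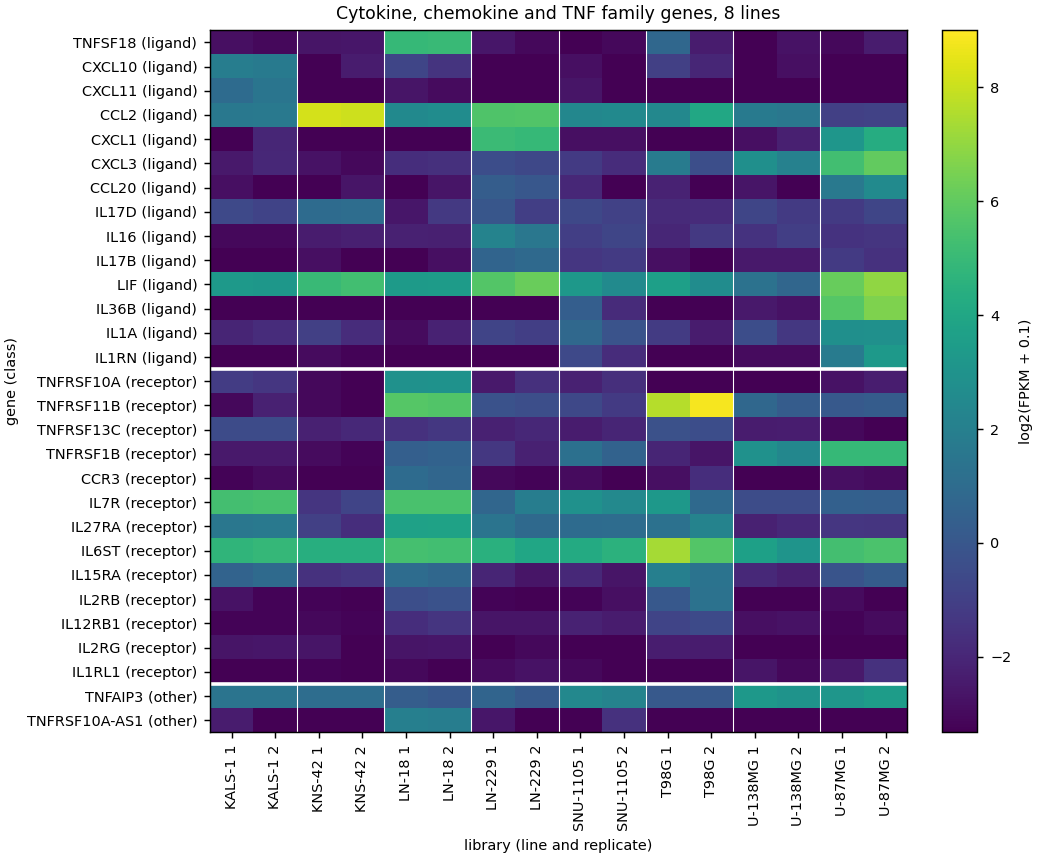
Level of the 29 genes in the 16 libraries of 8 lines, as log2(FPKM + 0.1), with ligands above, receptors in the middle and other genes below the white lines. CCL2 is brightest in KNS-42, TNFRSF11B in T98G, and IL36B, LIF and CXCL3 are bright in both U-87MG libraries, whereas IL6ST and LIF are above 1 FPKM in every library.

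Most chemokine ligands were high in 1 or 2 lines and at or near 0 in the rest. CXCL1, CXCL2, CXCL3, CXCL6 and CXCL8 encode neutrophil attractants that act through CXCR2, and they lie in the same region of chromosome 4 with at most 353.3 kb between any of them (GENCODE 29, GRCh38). CXCL10 and CXCL11, interferon-inducible ligands of the T cell receptor CXCR3, lie 10.2 kb apart elsewhere on the chromosome. The promoters of these 7 genes are shown because each holds the same NF-kB (kappaB) sequence within 250 bases before the RefSeq start (GRCh38.p14), printed in capitals: GGAATTTCC on the strand of the gene, or its reverse complement GGAAATTCC in CXCL10 and CXCL11.
CXCL8 (chr4:73740419-73740568, + strand): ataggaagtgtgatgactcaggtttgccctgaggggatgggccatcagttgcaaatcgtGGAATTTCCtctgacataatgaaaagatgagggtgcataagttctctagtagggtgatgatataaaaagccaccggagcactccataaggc
CXCL6 (chr4:73836528-73836677, + strand): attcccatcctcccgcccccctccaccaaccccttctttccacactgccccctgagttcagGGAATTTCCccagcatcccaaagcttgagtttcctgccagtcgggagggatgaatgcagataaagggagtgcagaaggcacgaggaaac
CXCL1 (chr4:73869243-73869392, + strand): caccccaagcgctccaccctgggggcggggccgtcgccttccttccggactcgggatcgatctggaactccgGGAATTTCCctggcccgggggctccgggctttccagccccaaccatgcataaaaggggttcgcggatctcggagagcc
CXCL3 (chr4:74038690-74038839, - strand): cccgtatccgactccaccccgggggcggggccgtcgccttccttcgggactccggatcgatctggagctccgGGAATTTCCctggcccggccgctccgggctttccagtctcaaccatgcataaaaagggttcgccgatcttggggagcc
CXCL2 (chr4:74099196-74099345, - strand): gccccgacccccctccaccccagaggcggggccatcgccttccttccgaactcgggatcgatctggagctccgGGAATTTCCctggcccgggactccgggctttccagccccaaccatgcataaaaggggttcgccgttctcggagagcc
CXCL10 (chr4:76023598-76023747, - strand): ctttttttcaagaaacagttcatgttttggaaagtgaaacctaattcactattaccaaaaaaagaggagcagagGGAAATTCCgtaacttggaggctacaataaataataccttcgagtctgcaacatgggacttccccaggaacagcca
CXCL11 (chr4:76036071-76036220, - strand): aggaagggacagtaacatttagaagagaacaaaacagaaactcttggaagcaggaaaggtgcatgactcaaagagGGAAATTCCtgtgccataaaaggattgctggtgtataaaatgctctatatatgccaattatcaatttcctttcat

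The window runs from 150 bases before the start to the last base before it, except for CXCL10, where it runs from 250 to 101 bases before. The first base of the match lay 91 bases before the start in CXCL8, 89 in CXCL6, 78 in CXCL1 and CXCL3, 77 in CXCL2, 176 in CXCL10 and 75 in CXCL11. Over 100 bases from 30 before the match, compared position by position without gaps, CXCL1 and CXCL3 were identical at 90. CXCL1 and CXCL2 were identical at 67 and CXCL3 and CXCL2 at 61, whereas each pair with CXCL6 or CXCL8 shared 30 to 37. A missing base, as in CXCL2 just after the match, shifts all later positions, so these counts do not rank similarity. Among the 51 of 66 genes with a RefSeq promoter, 8 held the sequence on either strand, the other being TNFRSF9, beside 0.502% of all 27305 genes with a promoter there. The interferon-type sequence, GAAA and GAAA with any 2 bases between, occurred in 5 of the genes (CXCL10, IL17B, IL1RN, IL24 and TNFRSF1B) and in 3.714% of all genes, and the AP-1 sequence TGANTCA in 13 of the genes, CXCL8 and CXCL11 among them, and in 8.057% of all genes. For kappaB only this exact sequence was searched for. All hits but TNFRSF9 are the CXCL genes printed above, of which CXCL1, CXCL2 and CXCL3 share much of their promoter sequence. The shares are therefore no test of enrichment. These matches describe letters only and show no binding.

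In the 3-line table all 5 neutrophil attractants were high in AM-38 and at or near 0 elsewhere. CXCL8 had 227 and 229 FPKM in AM-38, against 0.16 and 0.11 in A-172 and 0.05 and 0.02 in SNU-466 (log2 fold change over A-172 10.68 ± 0.11 (SE), adjusted p = 3.32e-83). It was the only one of the 54 genes above 100 FPKM. CXCL1 had 24.8 and 27.2 FPKM in AM-38 and no read in the other 4 libraries, so it was at least 901-fold higher in AM-38 against a floor of 3 reads over those 4. CXCL6 had 15.8 and 13.9 FPKM in AM-38 and again no read elsewhere, at least 771-fold higher. CXCL3 (7.16 and 8.44 FPKM in AM-38, 0.12 and 0 in A-172) and CXCL2 (6.54 and 6.46 in AM-38, 0.55 and 0.14 in A-172) had no read in SNU-466. No library of another line reached 1 FPKM for any of the 5 genes. CXCL1, CXCL2 and CXCL3 are close paralogs, and no source used here gives how reads that fit several of them were assigned, so their separate levels are uncertain.

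In the 8-line table, where CXCL1 and CXCL3 were listed, LN-229 and U-87MG were high. CXCL1 had 34.1 and 30.5 FPKM in LN-229 and 8.78 and 19.7 in U-87MG, against 0 to 0.15 in the other 12 libraries. LN-229 stood above U-87MG (log2 fold change over U-87MG 1.18 ± 0.37 (SE), adjusted p = 0.0106), but not without the first LN-229 library (adjusted p = 0.0601) or the first U-87MG library (log2 fold change 0.72, adjusted p = 0.144). CXCL3 was instead highest in U-87MG, with 37.9 and 66 FPKM, against 6.97 and 4.2 in U-138MG, 3.34 and 0.68 in T98G and 0.66 and 0.53 in LN-229 (log2 fold change over U-138MG 3.22 ± 0.45 (SE), adjusted p = 4.92e-06). LN-229 thus had more CXCL1 and U-87MG more CXCL3, per length, and no library of KALS-1, KNS-42, LN-18 or SNU-1105 reached 1 FPKM of either.

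CXCL10 and CXCL11 were above every other line in KALS-1 alone. CXCL10 had 3.58 and 3.17 FPKM in KALS-1, against 0.49 and 0.26 in LN-18 and 0.41 and 0.15 in T98G (log2 fold change over LN-18 3.16 ± 0.55 (SE), adjusted p = 8.45e-05). CXCL11 had 1.87 and 2.64 FPKM in KALS-1 and 0.06 and 0.03 in LN-18, with no read in 11 of the other 12 libraries (log2 fold change over LN-18 5.59 ± 0.70 (SE), adjusted p = 8.48e-06). Both genes lie within ART3, which runs on the other strand, so their reads are uncertain. KALS-1 was also the line with the most PTPRC, the leukocyte surface phosphatase, at 0.38 and 0.39 FPKM against 0 to 0.02 in the other lines, and of CD14, a monocyte marker, at 6.1 and 6.57 FPKM against 0.06 to 0.53. Of the leukocyte list 5 of 9 genes were listed, and the other 3 were above every other line elsewhere: ITGAM in T98G, at 0.19 and 0.38 FPKM, CSF1R in SNU-1105 and CD74 in LN-229. The summed level of the 5 ran from 6.68 to 7.38 FPKM in KALS-1 and from 0.79 to 501 in the other lines, where CD74 makes up the highest sums, and their part in the result was not tested.

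**Figure D2:**
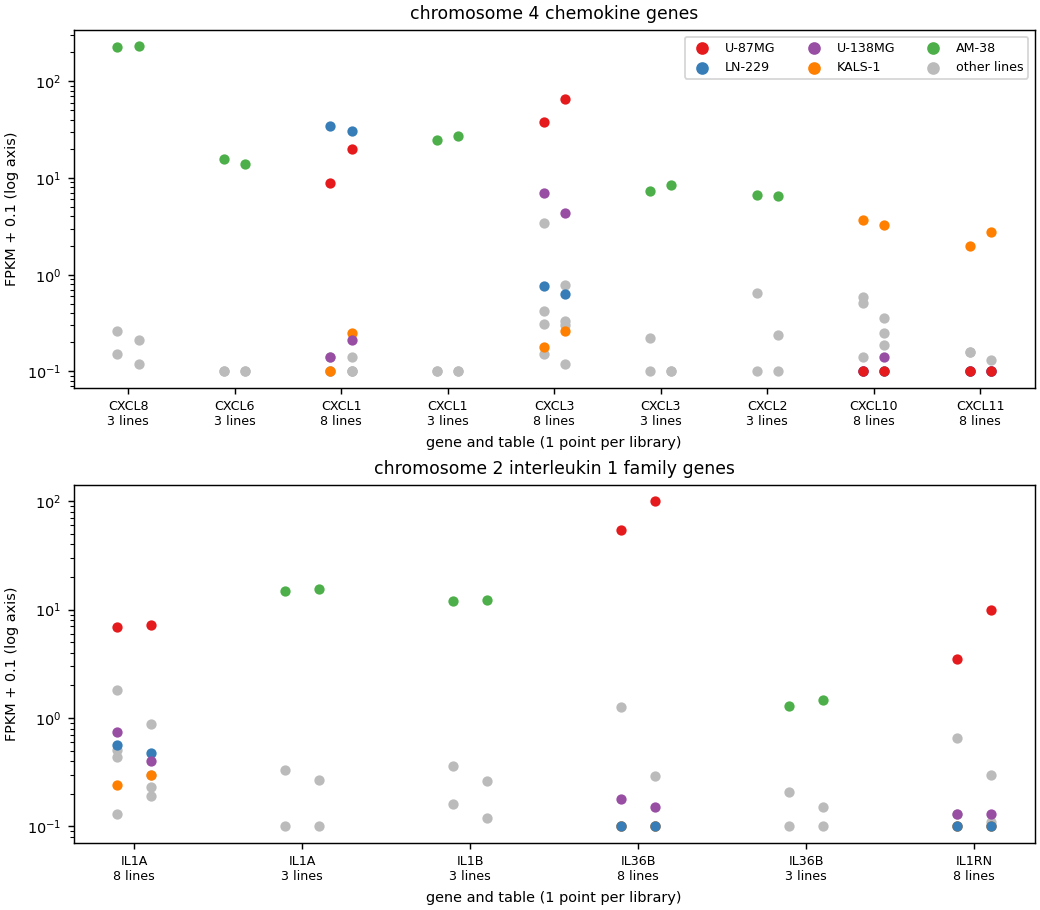
Level of the chemokine genes on chromosome 4 (top) and the interleukin 1 family genes on chromosome 2 (bottom), in genomic order, as FPKM + 0.1 on a log axis with 1 point per library and the table given under each gene. Of the 3 lines AM-38 is the only one above 1 FPKM for CXCL8, CXCL6 and CXCL2, which were not listed for the 8 lines. In the 8 lines U-87MG leads for CXCL3 and IL36B, LN-229 for CXCL1, and KALS-1 for CXCL10 and CXCL11.

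CCL2, the main attractant of monocytes, had the highest level of the 6 chemokine genes listed for the 8 lines. It had 299 and 266 FPKM in KNS-42, 48 and 50.7 in LN-229, 5.29 and 16.4 in T98G, 5.59 and 6.18 in LN-18 and 5.12 and 5.72 in SNU-1105. The level was 3.23 and 2.86 in U-138MG, 2.99 and 3.01 in KALS-1 and 0.4 and 0.44 in U-87MG. KNS-42 was above every other line (log2 fold change over LN-229 2.52 ± 0.33 (SE), adjusted p = 1.92e-06) and U-87MG below every other (KALS-1 over U-87MG 2.82 ± 0.43, adjusted p = 1.18e-05). In the order of levels LN-18 and SNU-1105 did not differ beyond their spread (adjusted p = 0.788), nor did U-138MG and KALS-1 (adjusted p = 0.998).

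CCL20, the ligand of CCR6, had 3.09 and 5.82 FPKM in U-87MG and 1.16 and 0.92 in LN-229, against 0 to 0.16 in the other 12 libraries (log2 fold change over LN-229 2.09 ± 0.55 (SE), adjusted p = 0.00258). That call was lost without the second U-87MG library (adjusted p = 0.0508) and with DESeq2 (adjusted p = 0.121). U-87MG thus combined the highest CCL20 and CXCL3 with the lowest CCL2 of the 8 lines. CCL26, an eosinophil attractant that acts through CCR3, had 2.33 and 1.83 FPKM in A-172, against 0.94 and 0.79 in AM-38 and no read in SNU-466 (log2 fold change over AM-38 1.26 ± 0.40 (SE), adjusted p = 0.0026), a call lost with DESeq2 (adjusted p = 0.0842).

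SNU-466 carried another set of chemokines. CXCL12, the ligand of CXCR4 and of the scavenger receptor ACKR3, had 7.6 and 8.19 FPKM in SNU-466, 0.02 and 0.01 in A-172 and no read in AM-38 (log2 fold change over A-172 9.21 ± 0.24 (SE), adjusted p = 1.23e-51). CX3CL1, a membrane-bound chemokine read by CX3CR1, had 1.4 and 1.56 FPKM in SNU-466, 0.32 and 0.38 in A-172 and 0.01 and 0.01 in AM-38 (log2 fold change over A-172 2.08 ± 0.21 (SE), adjusted p = 1.33e-15). CXCL14 reached 0.42 and 0.59 FPKM in SNU-466 and at most 0.02 elsewhere (log2 fold change over AM-38 5.05 ± 0.82 (SE), adjusted p = 4.84e-08). ACKR3 was high in the same line, with 90.2 and 90.3 FPKM in SNU-466, 3.99 and 3.88 in AM-38 and 0.05 and 0.05 in A-172. The mesenchymal genes COL1A2, DCN and LUM, 3 of the 5 on that list, summed to 963 to 965 FPKM in SNU-466, against 1.37 to 12.02 in AM-38 and A-172, and their part in these values was not tested.

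CCR3, the eosinophil receptor for CCL26, was the only CCR or CXCR gene listed. In the 8-line table it had 1.89 and 1.55 FPKM in LN-18, against 0.04 and 0.21 in T98G and at most 0.04 elsewhere (log2 fold change over T98G 3.78 ± 0.55 (SE), adjusted p = 1.32e-05). In the 3-line table it was low but above both other lines in AM-38, at 0.44 and 0.36 FPKM (log2 fold change over A-172 4.22 ± 0.50 (SE), adjusted p = 2.09e-12). Its gene overlaps CCR1 on the other strand, and since no source used here gives the strand setting of the counting, its reads are uncertain.

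Of the interleukin 1 family ligands, IL1A, IL1B, IL36B and IL1RN were highest in AM-38 or U-87MG and IL18 in A-172. IL1A and IL1B, the agonists of IL1R1, the receptor antagonist IL1RN and IL36B, an agonist of the related receptor IL1RL2, lie on chromosome 2 in the order IL1A, IL1B, IL36B and IL1RN, with 322.6 kb between the outer genes. IL1A had 14.9 and 15.3 FPKM in AM-38, 0.23 and 0.17 in A-172 and no read in SNU-466 (log2 fold change over A-172 6.22 ± 0.21 (SE), adjusted p = 3.49e-44). IL1B had 11.8 and 12.1 FPKM in AM-38, 0.26 and 0.16 in A-172 and 0.06 and 0.02 in SNU-466 (log2 fold change over A-172 5.82 ± 0.18 (SE), adjusted p = 3.23e-46). In AM-38 both agonists therefore stood above 10 FPKM in each library, and in the other 2 lines no library reached 0.5.

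Among the 8 lines, U-87MG had the highest level of the 3 listed genes of that region. IL1A had 6.85 and 7.15 FPKM in U-87MG and 1.71 and 0.79 in SNU-1105, against 0.03 to 0.65 in the other 12 libraries (log2 fold change over SNU-1105 2.48 ± 0.44 (SE), adjusted p = 7.14e-05). IL36B had 54 and 99.4 FPKM in U-87MG, 1.17 and 0.19 in SNU-1105, 0.08 and 0.05 in U-138MG and no read in the other 10 libraries (log2 fold change over SNU-1105 6.82 ± 0.57 (SE), adjusted p = 1.44e-07), although DESeq2 did not call it (adjusted p = 0.115). IL1RN had 3.41 and 9.77 FPKM in U-87MG and 0.56 and 0.2 in SNU-1105, with at most 0.03 elsewhere (log2 fold change over SNU-1105 4.11 ± 0.54 (SE), adjusted p = 8.48e-06). For all 3 genes SNU-1105 was next after U-87MG, and for IL36B and IL1RN the second U-87MG library was higher than the first. IL36B was also highest in AM-38 of the 3 lines, at 1.18 and 1.37 FPKM, against 0.11 and 0.05 in A-172 and no read in SNU-466 (log2 fold change over A-172 3.92 ± 0.49 (SE), adjusted p = 1.03e-11).

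The receptors of interleukin 1 ran the other way in the 3-line table. IL1R1, the signalling receptor, had 3.56 and 3.25 FPKM in SNU-466, 1.37 and 1.36 in A-172 and 0.54 and 0.37 in AM-38 (log2 fold change over A-172 1.31 ± 0.12 (SE), adjusted p = 1.82e-17), so that AM-38, highest for both agonists, was below both other lines. IL1RAP, the accessory chain shared by IL1R1 and IL1RL2, had 27.7 and 26.3 FPKM in SNU-466, 2.41 and 2.7 in A-172 and 2.07 and 1.95 in AM-38 (log2 fold change over A-172 3.40 ± 0.06 (SE), adjusted p = 2.04e-63). IL1RL1, the receptor of interleukin 33, did not pass the count filter in the 8 lines, with 0 to 0.24 FPKM. IL1RL2 and IL1R2 were not analysed here.

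Of the interleukin 6 type cytokines, LIF was expressed in every line. LIF, which keeps stem cells undifferentiated in mouse and signals through LIFR and IL6ST, had 70 and 125 FPKM in U-87MG, 51.3 and 73.7 in LN-229 and 32.6 and 38.2 in KNS-42. Its level was 10.2 and 10.9 in LN-18, 9.74 and 9.04 in KALS-1, 12.4 and 6.35 in T98G, 9.45 and 5.78 in SNU-1105 and 2.38 and 1.56 in U-138MG. U-87MG and LN-229 overlapped and did not differ beyond their spread (0.64 ± 0.32, adjusted p = 0.0896), nor did any neighbours in the order from LN-18 to SNU-1105 (adjusted p = 0.44 to 1), whereas U-138MG was below every other line (SNU-1105 over U-138MG 1.95 ± 0.35, adjusted p = 7.07e-05). In the 3-line table LIF had 33.4 and 32.3 FPKM in AM-38, 25.8 and 25.4 in A-172 and 6.23 and 5.89 in SNU-466, and SNU-466 was below both others (A-172 over SNU-466 2.08 ± 0.07, adjusted p = 1.03e-43). Per length, U-138MG was the line with the least LIF of the 11.

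IL11, which also signals through IL6ST, had 5.8 and 5.5 FPKM in A-172, 0.7 and 0.97 in AM-38 and 0.18 and 0.04 in SNU-466 (log2 fold change over AM-38 2.75 ± 0.18 (SE), adjusted p = 5.09e-25). CLCF1 and CTF1, cytokines of the same type that the rule does not take, were likewise above both other lines in A-172, with 6.47 and 5.64 FPKM for CLCF1 and 4.8 and 4.86 for CTF1. In SNU-466 the ligand-binding receptor IL6R was high instead, with 4.71 and 4.4 FPKM in SNU-466, 0.41 and 0.39 in AM-38 and 0.22 and 0.3 in A-172 (log2 fold change over AM-38 3.49 ± 0.14 (SE), adjusted p = 1.50e-38). IL6R overlaps its antisense RNA, whose level reached 0.13 and 0.2 FPKM in SNU-466 with no read in the other 4 libraries, and the 2 cannot be told apart with certainty.

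IL6ST, the signalling chain gp130 shared by these cytokines, was above 8 FPKM in every library of the 8 lines. It had 160.2 and 51.5 FPKM in T98G, 39.8 and 45.2 in U-87MG, 41.4 and 39 in LN-18 and 26.6 and 29.6 in KALS-1. The level was 18.3 and 23.8 in SNU-1105, 21.1 and 20.7 in KNS-42, 22.2 and 15.8 in LN-229 and 12.7 and 8.17 in U-138MG. T98G stood above U-87MG (1.32 ± 0.35, adjusted p = 0.003), but that call rests on its first library: without it the log2 fold change was 0.28 (adjusted p = 0.309). No pair of neighbours in the order from U-87MG to LN-229 differed beyond its spread (adjusted p = 0.206 to 1).

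IL27RA and IL31RA are receptor chains of the same class. IL27RA, which pairs with IL6ST to read interleukin 27, had 13.1 and 13.8 FPKM in LN-18 and 2.35 and 4.44 in T98G, against 0.12 to 3.11 in the other lines (log2 fold change over T98G 1.99 ± 0.31 (SE), adjusted p = 1.39e-05). Among the 3 lines it had 9.17 and 8.1 FPKM in A-172, 3.18 and 3.64 in AM-38 and 1.12 and 1.02 in SNU-466 (log2 fold change over AM-38 1.34 ± 0.11 (SE), adjusted p = 7.07e-19). IL31RA, which lies 12.2 kb from IL6ST on chromosome 5 and pairs with OSMR, had 1.86 and 1.87 FPKM in AM-38, 0.49 and 0.5 in A-172 and 0.07 and 0.09 in SNU-466 (log2 fold change over A-172 1.91 ± 0.13 (SE), adjusted p = 9.18e-24).

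IL24, a cytokine of the interleukin 10 family, was second in level among the listed ligands of AM-38. It had 77.9 and 75.7 FPKM in AM-38, 0.03 and 0.05 in SNU-466 and 0.05 and 0 in A-172 (log2 fold change over SNU-466 10.75 ± 0.18 (SE), adjusted p = 2.82e-66). IL22RA1, a chain of its receptors, had 1.16 and 1.13 FPKM in A-172 and 0.87 and 0.94 in AM-38, which did not differ beyond their spread (adjusted p = 0.177), and 0.02 and 0.02 in SNU-466. IL20RA, another chain, stayed under the count filter at 0 to 0.06 FPKM. CSF2, the growth factor of granulocytes and macrophages, had 5.03 and 5.61 FPKM in AM-38, 0.33 and 0.06 in A-172 and no read in SNU-466 (log2 fold change over A-172 4.73 ± 0.43 (SE), adjusted p = 2.50e-17).

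A-172 was marked by 2 other inflammatory cytokines. IL18, which is matured by inflammasomes, had 7.04 and 7.46 FPKM in A-172, 0.25 and 0.21 in AM-38 and no read in SNU-466 (log2 fold change over AM-38 4.94 ± 0.22 (SE), adjusted p = 5.86e-36). IL32 had 14.6 and 15.3 FPKM in A-172, 1.19 and 0.81 in AM-38 and 0.22 and 0.06 in SNU-466 (log2 fold change over AM-38 3.89 ± 0.13 (SE), adjusted p = 2.77e-44). IL4I1, a secreted amino acid oxidase named for its induction by interleukin 4, had 2.83 and 3 FPKM in A-172, 0.57 and 0.68 in AM-38 and 0 and 0.08 in SNU-466 (log2 fold change over AM-38 2.22 ± 0.23 (SE), adjusted p = 9.24e-15). IL4I1 shares gene territory with NUP62 on its own strand, so its reads are uncertain. A-172 was also above both other lines for PTPRC (0.1 and 0.13 FPKM) and ITGAM (0.55 and 0.51 FPKM) of the leukocyte list, of which 3 of 9 genes were listed and summed to 0.86 to 0.88 FPKM in A-172, 0.25 to 0.39 in AM-38 and 0.02 to 0.03 in SNU-466. The endothelial genes, 3 of 4 on that list, summed to 2.43 to 2.54 FPKM in A-172, 0.94 to 1.12 in AM-38 and 0 to 0.01 in SNU-466, with PECAM1 and TEK highest in A-172 and CDH5 in AM-38. The epithelial keratins KRT8 and KRT18, 2 of the 5 on that list, summed to 452 to 472 FPKM in A-172, 79.1 to 85.7 in AM-38 and 0.09 to 0.13 in SNU-466. The part of these markers in the values of A-172 was not tested.

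IL16, IL17B and IL17D were highest in LN-229 or KNS-42 in the 8-line table. IL16, released from a precursor and read by CD4, had 4.45 and 2.85 FPKM in LN-229, against 0.02 to 0.5 in the other lines (log2 fold change over SNU-1105 3.02 ± 0.33 (SE), adjusted p = 2.01e-07), and KALS-1 was below every other line at 0.02 and 0.02. IL17B had 1.47 and 1.74 FPKM in LN-229, against 0 to 0.33 elsewhere (log2 fold change over SNU-1105 2.36 ± 0.50 (SE), adjusted p = 4.84e-04). IL17D had 1.9 and 2.03 FPKM in KNS-42 and 0.89 and 0.39 in LN-229 (log2 fold change over LN-229 1.61 ± 0.43 (SE), adjusted p = 0.00306), a call lost without the second LN-229 library (adjusted p = 0.0568). LN-229 also had by far the most CD74, a chain of the antigen-presenting machinery on the leukocyte list, at 500.4 and 397 FPKM, beside 0 and 0.01 of PTPRC, and its part in these values was not tested.

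In the 3-line table all 3 of these genes were above both other lines in SNU-466. IL16 had 5.27 and 5.13 FPKM in SNU-466, 0.01 and 0 in AM-38 and 0 and 0 in A-172 (log2 fold change over AM-38 10.16 ± 0.24 (SE), adjusted p = 1.30e-55). IL17B had 2.98 and 2.7 FPKM in SNU-466 and at most 0.19 elsewhere (log2 fold change over AM-38 4.77 ± 0.48 (SE), adjusted p = 3.03e-15), and IL17D had 3.22 and 2.6 and at most 0.35 elsewhere (log2 fold change over A-172 3.45 ± 0.24 (SE), adjusted p = 2.64e-23). SNU-466 thus had IL16, IL17B and IL17D together, and neither IL1A nor IL1B above 0.06 FPKM. IL17RD, which binds interleukin 17 receptors and dampens growth factor signalling, was highest in AM-38, with 5.22 and 5 FPKM in AM-38, 1.4 and 1.19 in A-172 and 0.33 and 0.26 in SNU-466 (log2 fold change over A-172 1.98 ± 0.10 (SE), adjusted p = 1.21e-32).

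**Figure D3:**
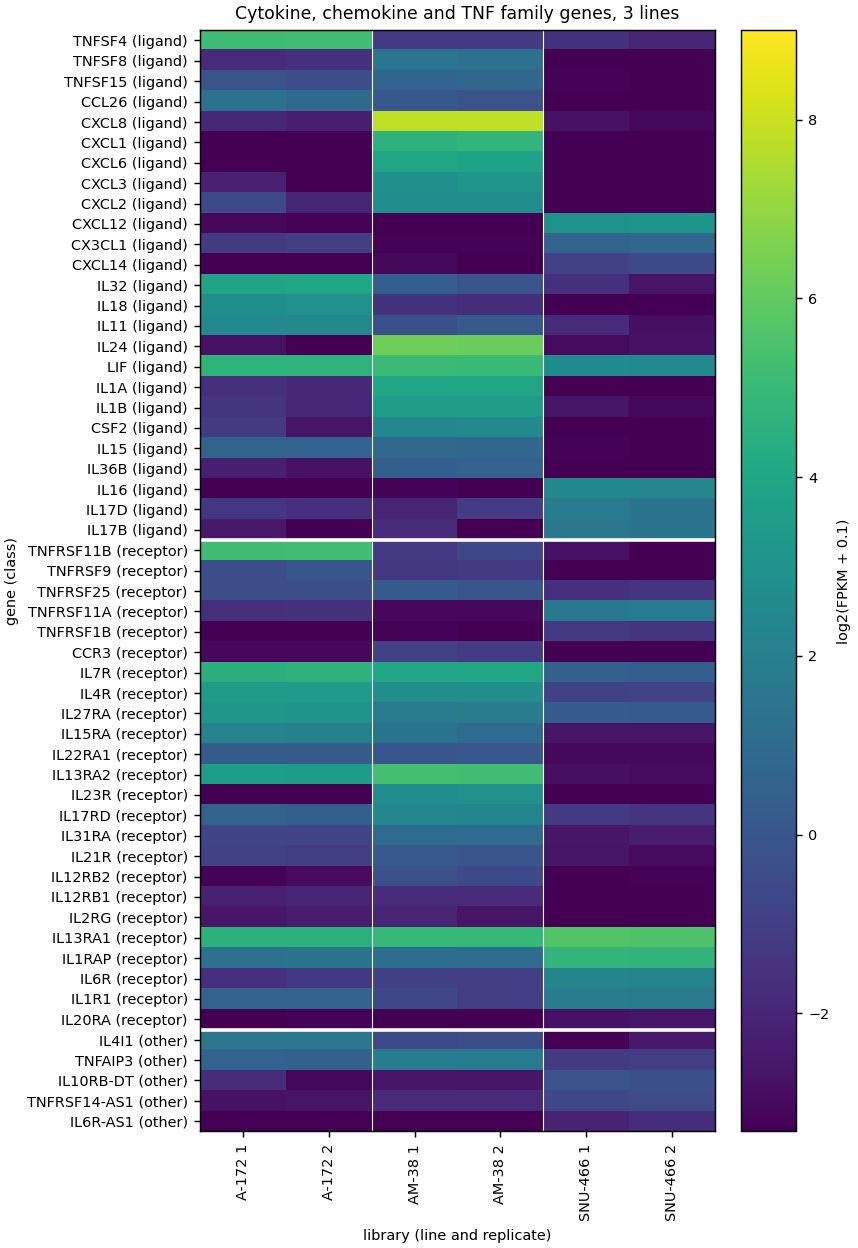
Level of the 54 genes in the 6 libraries of A-172, AM-38 and SNU-466, as log2(FPKM + 0.1), with ligands above, receptors in the middle and other genes below the white lines. Blocks of genes that are bright in 1 line and dark in the others are seen for each line, whereas IL13RA1 is bright in all 3.

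Each of the 4 TNFSF ligands was above every other line of its table in 1 line. TNFSF18, the ligand of the T cell receptor GITR, had 30.1 and 32.1 FPKM in LN-18 and 1.66 and 0.09 in T98G, against 0 to 0.09 in the other 12 libraries (log2 fold change over T98G 5.13 ± 0.64 (SE), adjusted p = 1.04e-06). TNFSF4, the ligand of the costimulatory receptor OX40, lies 132.8 kb from it on chromosome 1 and had 36.2 and 36.9 FPKM in A-172, 0.32 and 0.33 in AM-38 and 0.25 and 0.14 in SNU-466 (log2 fold change over AM-38 6.81 ± 0.12 (SE), adjusted p = 5.89e-65). Each gene was listed in 1 of the tables, and within its table it was at least 30 FPKM in the leading line and at most 1.66 in the others.

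TNFSF8, the ligand of CD30, and TNFSF15, the ligand of TNFRSF25, lie 87.2 kb apart on chromosome 9 and were both highest in AM-38. TNFSF8 had 2.76 and 2.42 FPKM in AM-38, 0.18 and 0.22 in A-172 and no read in SNU-466 (log2 fold change over A-172 3.71 ± 0.23 (SE), adjusted p = 1.03e-26). TNFSF15 had 1.51 and 1.55 FPKM in AM-38, 0.82 and 0.68 in A-172 and 0.01 and 0 in SNU-466 (log2 fold change over A-172 1.04 ± 0.15 (SE), adjusted p = 2.25e-09), which fell short of the 2-fold limit without the second A-172 library (log2 fold change 0.91). TNFRSF25, its receptor, differed less, with 1.07 and 0.85 FPKM in AM-38, 0.65 and 0.65 in A-172 and 0.22 and 0.27 in SNU-466 (log2 fold change over A-172 0.57 ± 0.22 (SE), adjusted p = 0.0157).

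TNFRSF11B, which encodes the secreted decoy receptor osteoprotegerin for TNFSF11 and TNFSF10, had the highest line mean of the 66 genes, a rank that rests on the second T98G library. It had 195 and 459 FPKM in T98G and 53.5 and 50 in LN-18, against 0 to 1.66 in the other 12 libraries. T98G stood above LN-18 (2.66 ± 0.33, adjusted p = 1.20e-06) with no overlap, although its own libraries differed widely and the first was below both KNS-42 libraries for CCL2 and both AM-38 libraries for CXCL8, and LN-18 stood above U-138MG (5.22 ± 0.39, adjusted p = 1.35e-09). Among the 3 lines TNFRSF11B had 36 and 37.8 FPKM in A-172, 0.32 and 0.52 in AM-38 and 0.05 and 0 in SNU-466 (log2 fold change over AM-38 6.46 ± 0.14 (SE), adjusted p = 2.12e-58). The decoy thus exceeded 35 FPKM in every library of T98G, LN-18 and A-172 and stayed under 2 FPKM in the other 8 lines.

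TNFRSF11A, the signalling receptor RANK for TNFSF11, went with another line. It had 3.11 and 3.2 FPKM in SNU-466, 0.22 and 0.24 in A-172 and 0.02 and 0.02 in AM-38 (log2 fold change over A-172 3.78 ± 0.16 (SE), adjusted p = 4.57e-38). TNFRSF10A, a death receptor for TNFSF10, had 7.53 and 7.75 FPKM in LN-18, against 0 to 0.36 in the other 14 libraries (log2 fold change over KALS-1 4.58 ± 0.42 (SE), adjusted p = 6.11e-08). LN-18 thus had both the decoy and this death receptor. The antisense RNA TNFRSF10A-AS1, which overlaps the receptor gene, was also above every other line in LN-18, at 3.94 and 3.67 FPKM (log2 fold change over SNU-1105 4.89 ± 0.76 (SE), adjusted p = 5.00e-05), a call lost with DESeq2 (adjusted p = 0.177), and without a known strand setting the reads of the pair are uncertain.

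TNFRSF1B, the second TNF receptor, which lacks a death domain, had 30.7 and 30.3 FPKM in U-87MG, 7.36 and 5.18 in U-138MG and 2.21 and 1.39 in SNU-1105, against 0.01 to 1.39 in the other lines (log2 fold change over U-138MG 2.28 ± 0.29 (SE), adjusted p = 1.59e-06). The order of U-87MG, U-138MG and SNU-1105 was the same by mean level for TNFAIP3. TNFRSF13C, the receptor of the B cell factor TNFSF13B, was low throughout, with 0.72 and 0.66 FPKM in T98G and 0.6 and 0.61 in KALS-1, which did not differ beyond their spread (adjusted p = 0.693), and U-87MG was below every other line at 0.02 and 0. TNFRSF9, the costimulatory receptor 4-1BB, had 0.68 and 0.88 FPKM in A-172, 0.3 and 0.32 in AM-38 and no read in SNU-466 (log2 fold change over AM-38 1.35 ± 0.24 (SE), adjusted p = 2.68e-07).

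TNFAIP3 (A20) is an NF-kB target that feeds back to switch the pathway off. It had 8.68 and 11.3 FPKM in U-87MG, 9.33 and 7.85 in U-138MG, 5.28 and 4.39 in SNU-1105 and 2.58 and 2.53 in KALS-1. The other lines held 2.02 and 2.01 FPKM in KNS-42, 1.46 and 1.02 in LN-229, 1.13 and 0.95 in LN-18 and 1 and 0.99 in T98G. U-87MG and U-138MG overlapped and did not differ beyond their spread (adjusted p = 0.403), and U-138MG was above SNU-1105 (U-138MG over SNU-1105 0.83 ± 0.22, adjusted p = 0.00321). AM-38 was above both others of its table, with 3.61 and 3.43 FPKM in AM-38, 1.41 and 1.31 in A-172 and 0.33 and 0.37 in SNU-466 (log2 fold change over A-172 1.37 ± 0.12 (SE), adjusted p = 2.17e-18).

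Receptors of the interleukin 2, 4 and 7 group reached more than 35 FPKM in LN-18, KALS-1, AM-38 and SNU-466. IL7R, which carries survival signals in lymphocytes, had 44.6 and 44.5 FPKM in LN-18 and 40.1 and 42.5 in KALS-1. The libraries of these lines did not overlap, but the lines did not differ beyond the spread pooled over all lines (0.11 ± 0.47, adjusted p = 0.88). IL7R had 7.44 and 5.54 in SNU-1105, 9.54 and 1.74 in T98G and 0.27 to 3.69 in the remaining 4 lines, and KALS-1 was above SNU-1105 (2.67 ± 0.51, adjusted p = 1.38e-04). Among the 3 lines IL7R had 22.8 and 24.8 FPKM in A-172, 15.7 and 15.8 in AM-38 and 1.26 and 1.17 in SNU-466 (A-172 over AM-38 0.60 ± 0.06, adjusted p = 1.87e-15). LN-18, KALS-1, A-172 and AM-38 therefore all held more than 15 FPKM, and no library of another line reached 10.

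IL2RB and IL15RA are chains of the interleukin 2 and 15 receptors. IL2RB had 0.96 and 2.38 FPKM in T98G and 0.68 and 0.75 in LN-18, against 0 to 0.05 elsewhere. T98G stood above LN-18 (1.22 ± 0.48, adjusted p = 0.0342), but without its second library the log2 fold change was 0.43 (adjusted p = 0.434), without the first or second LN-18 library the adjusted p was 0.158 or 0.119, with DESeq2 0.219, with limma 0.148 and with the replicate number as a block 0.056. IL15RA had 3.95 and 2.48 FPKM in T98G, 1.97 and 1.65 in LN-18, 1.41 and 1.8 in KALS-1 and 0.81 and 1.11 in U-87MG, against 0.06 to 0.28 in the other 4 lines. IL2RG, the common chain, did not pass the count filter in either table, with at most 0.14 FPKM.

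In the 3-line table IL15 and its receptor chain IL15RA were both at or near 0 in SNU-466, and their highest levels were in different lines. IL15 had 1.81 and 1.64 FPKM in AM-38, 1.45 and 1.39 in A-172 and 0.01 and 0 in SNU-466, so that SNU-466 was below both (A-172 over SNU-466 8.37 ± 0.41, adjusted p = 1.21e-32, AM-38 over A-172 0.28 ± 0.13, adjusted p = 0.0331). IL15RA had 4.24 and 4.18 FPKM in A-172, 2.62 and 1.89 in AM-38 and 0.06 and 0.06 in SNU-466 (A-172 over AM-38 0.89 ± 0.13, adjusted p = 5.43e-09, AM-38 over SNU-466 5.19 ± 0.32, adjusted p = 1.98e-26). IL21R, the receptor of interleukin 21, had 0.98 and 0.86 FPKM in AM-38, 0.43 and 0.38 in A-172 and 0.06 and 0.03 in SNU-466 (log2 fold change over A-172 1.19 ± 0.23 (SE), adjusted p = 1.88e-06).

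The receptors of interleukin 13 behaved differently from each other. IL13RA2, a high-affinity decoy known as a glioblastoma surface antigen, had 40.4 and 37.2 FPKM in AM-38, 11.8 and 11.1 in A-172 and 0.04 and 0.03 in SNU-466 (log2 fold change over A-172 1.76 ± 0.09 (SE), adjusted p = 1.37e-32). IL13RA1, the signalling chain, had 49.9 and 46.7 FPKM in SNU-466, 29 and 29.7 in AM-38 and 24.3 and 24.2 in A-172. It was the only tested gene of the 54 that was not called as differing among the lines, since its line means lay less than 2-fold apart, although each step of the order passed the test (SNU-466 over AM-38 0.72 ± 0.05, adjusted p = 7.68e-23). IL4R, its partner chain, had 11.1 and 10.8 FPKM in A-172, 6.99 and 6.67 in AM-38 and 0.43 and 0.48 in SNU-466 (A-172 over AM-38 0.68 ± 0.08, adjusted p = 3.27e-13). SNU-466 thus had the most IL13RA1 and by far the least IL13RA2 and IL4R.

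The receptors of interleukins 12 and 23 were low except for IL23R in AM-38. IL23R had 6.59 and 7.32 FPKM in AM-38 and no read in the other 4 libraries, at least 807-fold higher. Its neighbour IL12RB2, 47.4 kb away on chromosome 1, had 0.72 and 0.58 FPKM in AM-38, 0.01 and 0.03 in A-172 and 0 and 0.01 in SNU-466 (log2 fold change over A-172 4.95 ± 0.41 (SE), adjusted p = 2.42e-19). IL12RB1, the chain both receptors need, had 0.18 and 0.18 FPKM in AM-38 and 0.12 and 0.14 in A-172, which did not differ beyond their spread (adjusted p = 0.357), and no read in SNU-466. In the 8-line table IL12RB1 had 0.47 and 0.59 FPKM in T98G and 0.21 and 0.27 in LN-18 (log2 fold change over LN-18 1.13 ± 0.40 (SE), adjusted p = 0.0185), a call lost without the first LN-18 library (adjusted p = 0.117), without the second T98G library (0.0886) and with DESeq2 (0.119). IL23R overlaps C1orf141, and IL12RB1 overlaps MAST3, each on the other strand, so their reads are uncertain.

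By line, the calls were uneven in number and kind. U-87MG was above every other line for 6 of the 27 tested genes (22.2%, beside 5.82% of all tested genes), of which 5 were ligands. LN-18 was for 5 (18.5%, beside 9.5%), T98G for 4 receptors (14.8%, beside 4.77%), LN-229 for 3 ligands (11.1%, beside 4.53%), KALS-1 for 2 (7.41%, beside 8.83%) and KNS-42 for 2 ligands (7.41%, beside 8.35%). The noncoding TNFRSF10A-AS1 is counted with LN-18. Of the T98G calls, IL6ST fell to a log2 fold change of 0.28 over U-87MG without the first T98G library. Without the second T98G library IL2RB and IL12RB1 fell to 0.43 and 0.96 over LN-18. SNU-1105 and U-138MG led for none, beside 1% and 4.25% of all tested genes. U-87MG was below every other line for 2 (CCL2 and TNFRSF13C, 7.41% beside 1.62%), U-138MG for LIF (3.70%, beside 1.48%) and KALS-1 for IL16 (3.70%, beside 2%). No tested gene was lowest in this sense in T98G (4.63% of all tested genes), LN-18 (2.82%), KNS-42 (1.72%), LN-229 (0.525%) or SNU-1105 (0.191%). AM-38 was above both others of its table for 20 of 51 (39.2%, beside 19.5%), 12 of them ligands, A-172 for 9 (17.6%, beside 13.2%) and SNU-466 for 13 (25.5%, beside 32.3%). SNU-466 was below both others for 31 (60.8%, beside 45.8%), AM-38 for 3 (5.88%, beside 11%) and A-172 for 1 (1.96%, beside 5.22%). Among the 31 are CCR3, CSF2, CXCL3, CXCL8 and IL36B, for which each A-172 library had at most 8 reads, so these calls rest on few reads. The 13 of SNU-466 include the noncoding IL10RB-DT (0.78 and 0.7 FPKM) and TNFRSF14-AS1 (0.51 and 0.61 FPKM). Without the first LN-18 library T98G was above for 2, and without the second LN-229 library KNS-42 was for 1. Without the second U-87MG library U-87MG was below for 1, and without the second LN-229 or the first U-138MG library U-138MG was for 2. KNS-42 was below for 1 without the first KALS-1 library or any 1 library of LN-229 or T98G. The shares of KALS-1 and KNS-42 were close to those of all genes, and no test of the other differences was made.

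**Figure D4:**
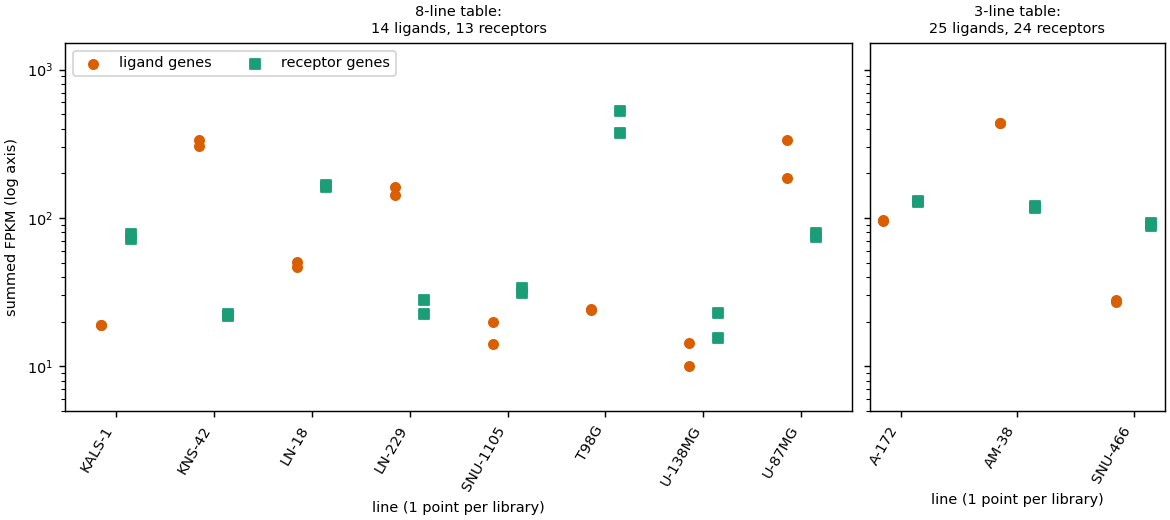
Summed FPKM of the listed ligand genes (circles) and receptor genes (squares), on a log axis with 1 point per library, for the 8 lines (left) and the 3 lines (right). The gene lists of the panels differ, so sums are compared within a panel only. Ligands exceed receptors in KNS-42, LN-229, U-87MG and AM-38, and receptors exceed ligands in KALS-1, LN-18, SNU-1105, T98G, A-172 and SNU-466 and in both U-138MG libraries.

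The summed levels of ligands and receptors differed among the lines. All 29 genes of the 8 lines have a gap in mean FPKM of at least 2-fold between T98G, KALS-1 and LN-18 and the remaining 5 lines. The sums therefore describe listed genes and cannot be read apart from how these were chosen. Ligand genes summed to 334 and 307 FPKM in KNS-42, 185 and 334 in U-87MG and 143 and 162 in LN-229, and to 10.0 to 50.4 in the other 5 lines. CCL2 made up most of the KNS-42 sum, and IL36B, LIF and CXCL3 most of the U-87MG sum. Receptor genes summed to 374 and 524 FPKM in T98G and 166 and 161 in LN-18, and to 15.5 to 79.6 in the other 6 lines. The decoy TNFRSF11B gave 195 and 459 FPKM of the T98G sums and IL6ST 160.2 and 51.5, in the line whose libraries differed most. IL6ST also gave 21.1 and 20.7 FPKM of the KNS-42 receptor sums of 22.3 and 21.9, and 12.7 and 8.17 of the U-138MG sums of 22.9 and 15.5. In AM-38 ligands summed to 435 and 436 FPKM, against 96.7 and 96.0 in A-172 and 27.9 and 27.0 in SNU-466, whereas the receptor sums were 120 and 116 in AM-38, 129 and 131 in A-172 and 93.0 and 87.6 in SNU-466.

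**Figure D5:**
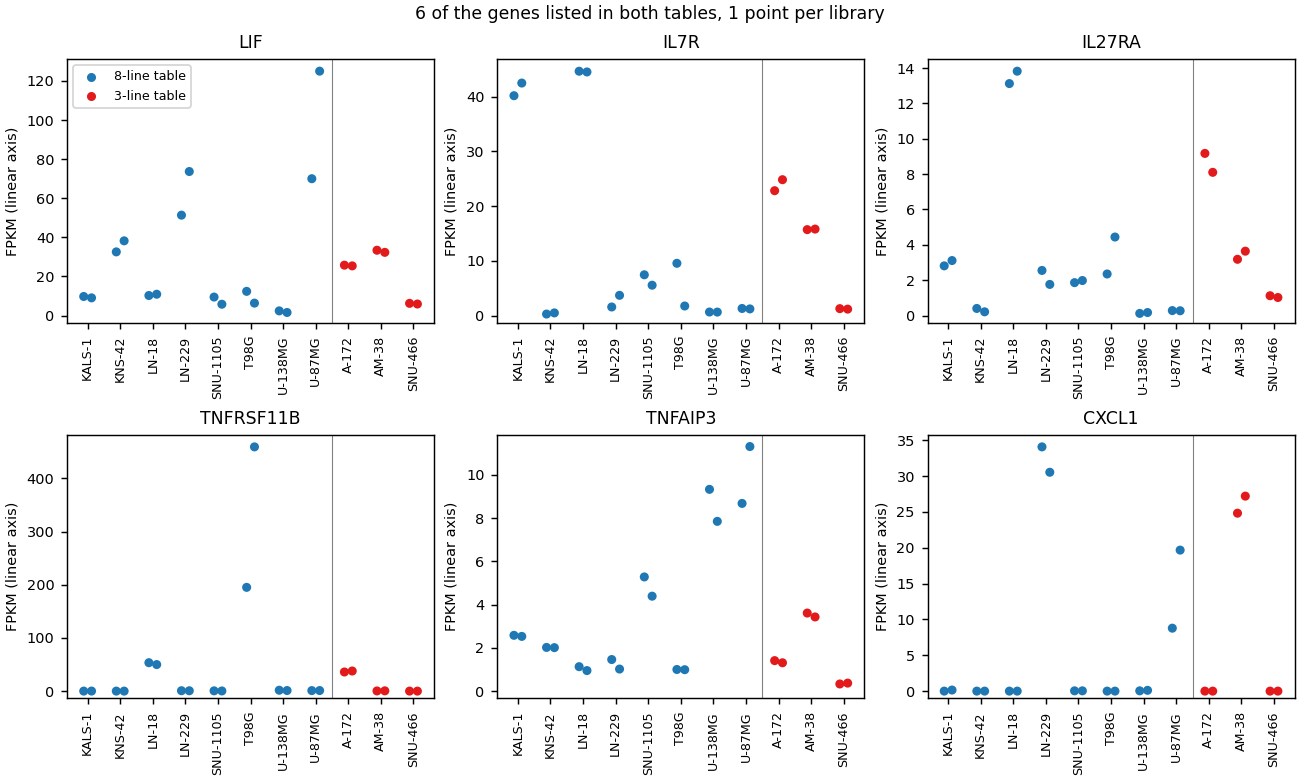
Level in FPKM, on a linear axis, of 6 of the 17 genes listed in both tables, with 1 point per library, the 8 lines in blue and the 3 lines in red. IL7R is high in KALS-1, LN-18, A-172 and AM-38, TNFRSF11B in T98G, LN-18 and A-172, and CXCL1 in LN-229, U-87MG and AM-38, whereas LIF is above 1 FPKM in every library.

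Genes listed in both tables allow the levels to be read over 11 lines, without a test between tables. CXCL1 reached 8 FPKM or more in LN-229, AM-38 and U-87MG and at most 0.15 in the other 8 lines. IL1A exceeded 6 FPKM in AM-38 and U-87MG and was at most 1.71 elsewhere, and these 2 lines also had the highest mean IL36B. Among the 11 lines, U-87MG and AM-38 were thus the ones that held CXCL1, CXCL3, IL1A and IL36B all above 1 FPKM in both libraries. IL16 and IL17B were both above 1 FPKM in LN-229 and SNU-466 alone.

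The pathways behind these signals were covered in part. Of 33 NF-kB pathway genes 3 were listed for the 8 lines, and of these SOD2, a mitochondrial superoxide dismutase that NF-kB induces, was above every other line in U-87MG, with 71.1 and 114 FPKM in U-87MG against 2.15 to 18.3 in the other lines. MAP3K14, the kinase of the alternative NF-kB route, was below every other line in U-87MG at 0.93 and 0.97 FPKM, and so was TNFAIP2 in KNS-42. Of the 10 listed for the 3 lines, A-172 was above both others for 5 (BIRC3, TNIP1, SOD2, TNFAIP2 and TLR4, beside 13.2% of all tested genes), SNU-466 for 2 (TRAF1 and MYD88, beside 32.3%) and AM-38 for none (beside 19.5%). SNU-466 was below both for 6 (beside 45.8%) and AM-38 for 2 (TRAF1 and MYD88, beside 11%). MYD88, the adaptor of interleukin 1 receptors, had 9.07 and 9.5 FPKM in SNU-466, 0.67 and 0.76 in A-172 and 0.02 and 0.07 in AM-38. AM-38, with the most CXCL8 and IL1B of the 3 lines, thus had the least of this adaptor and led for none of the 10 listed. TNFAIP3, an NF-kB target outside this list, was above both other lines in AM-38, at 3.61 and 3.43 FPKM. What these levels mean for NF-kB activity was not tested.

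Of 25 JAK-STAT genes 2 were listed for the 8 lines, with CLCF1 below every other line in T98G at 2.83 and 2.64 FPKM, and 6 for the 3 lines, where 5 were tested. There A-172 was above both others for CISH, CLCF1 and CTF1 (3 of 5, beside 13.2% of all tested genes), and SNU-466 for STAT2, with 30.3 and 30.1 FPKM (1 of 5, beside 32.3%), while SNU-466 was below both for 4 (beside 45.8%). Of 22 death receptor and TNF family genes outside the rule, 2 were listed for the 8 lines with no line above or below every other, and 5 for the 3 lines. CD70, the ligand of the costimulatory receptor CD27, had 49.9 and 43.7 FPKM in AM-38, 7.47 and 7.49 in A-172 and 1.27 and 0.9 in SNU-466, and LTBR, the lymphotoxin receptor, had 15.1 and 13.7 in AM-38 and at most 0.07 elsewhere. AM-38 was above both others for these and for CD40 (3 of 5, beside 19.5% of all tested genes), SNU-466 was for NGFR (1 of 5, beside 32.3%) and was below both for CASP10, LTBR and CD70 (beside 45.8%), and A-172 was below both for NGFR (beside 5.22%). CSF1R, the receptor of macrophage growth factor, was above every other line in SNU-1105, with 5.09 and 4.38 FPKM, 1.65 and 1.7 in U-87MG and 0.03 to 0.32 elsewhere, and SNU-1105 led for none of the 27 cytokine genes tested.

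The glioblastoma label was checked against glial genes as far as they were listed. SOX2 had 32.6 to 326 FPKM in KNS-42, LN-229 and SNU-1105, 0.85 to 1.23 in KALS-1 and at most 0.18 in LN-18, T98G, U-138MG and U-87MG, and vimentin had 239 to 1045 in all 8 lines. GFAP, the astrocyte filament, had 3.31 and 3.51 FPKM in SNU-466 and at most 0.12 in A-172 and AM-38. S100B, a calcium-binding protein of glia, had 958 and 958 FPKM in SNU-466, 0.65 and 0.97 in AM-38 and 0 and 0.05 in A-172. NES, the progenitor filament nestin, had 85 and 83.5 FPKM in SNU-466 and 59.9 and 57.8 in A-172, and AM-38 was below both at 23.9 and 24.2. PTPRC was at most 0.39 FPKM in every library of the 11 lines.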

How the data were processed

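Poly(A) RNA of 11 cell lines was sequenced in 2 libraries each. The authors deposited raw read counts, FPKM and gene lengths for each library, listing 2221 genes (8 lines) and 5383 genes (3 lines). The deposited FPKM scale reads by gene length and library total. HISAT2 2.2.1, StringTie 1.3.3, HTSeq 0.6.0, FastQC 0.10.1 and cutadapt 1.9.1, with hg38/GRCh38, are named, without roles, per the submitters' processing notes. The annotation release, the strand setting of the counting, the treatment of reads that fit several genes and the choice of listed genes are not given in the sources used here. Of the 66 genes 17 overlap another protein-coding gene (GENCODE 29), 4 of them on the same strand. Among those with values above, CXCL14, IL10RB-DT, IL16, IL18, TNFRSF14-AS1, TNFRSF25 and TNFSF8 overlap one on the other strand, IL1RL1, IL2RG and TNFRSF25 one on the same strand, and their reads are uncertain too.

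Each library's total was computed from reads, length and FPKM over genes that reach 20 FPKM and 200 reads; it gave back the deposited FPKM within 0.01 for at least 99.9% of genes. FPKM means were computed from counts and these totals. A count of 0 allows up to 3 reads, and such floors cover counting error only. Gene IDs were matched to names for 2220 of 2221 and 5382 of 5383 genes. The rule that chose the genes leaves out 1 gene, which is not reported here.

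Each table was fitted apart with edgeR 4.0.16 (R 4.3.3), 1 coefficient per line, these totals as library sizes and a low-count filter of 10 reads (filterByExpr with lines as groups), which left 2095 and 5035 genes. Every pair of lines (28 and 3) was tested with the quasi-likelihood test on counts, with Benjamini-Hochberg adjustment over all genes and pairs, because a contrast with the mean of the other lines is infinite where a line has 0 reads. Differing among lines means an adjusted p under 0.05 in the test over all lines and a log2 gap of 1 or more between line means. The method was tested on simulated data with the same spread in every line, so that test does not cover the unequal spread of these lines. Alternatives were TMM and RLE factors, no filter, a filter of 50 reads, DESeq2 1.42.0, limma 3.58.1 on log2 CPM, a replicate block and leaving out each library. The genes and lists were chosen with earlier results of these data known. Named are genes with a line mean of at least 1 FPKM, or called at 0.5 FPKM or more, or in a fixed list of ligand and receptor pairs.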

Additional observations from a re-analysis of the deposited data

How the results depend on the processing

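With TMM or RLE factors, without the count filter, with a 50-read filter, DESeq2, limma or a replicate block, and without each library, each table's count of genes above, below or differing stayed within 1.5 times its value, and no fold change of highest over next line that was called turned its sign. Counts for single lines moved more: T98G was above every other line for 2 genes, not 4, with DESeq2 or without the first LN-18 library, and KNS-42 was below every other line for 2 with TMM or RLE factors and 1 with limma or the block, not 0. Without the second LN-229 library KNS-42 was above for 1, not 2, and without the second U-87MG library U-87MG was below for 1, not 2. Of the 22 genes above every other line in the 8-line table, 22 were kept with TMM, RLE or no filter, 19 with a 50-read filter (IL12RB1, IL17B and TNFRSF10A-AS1 lost), 17 with DESeq2 (CCL20, IL12RB1, IL2RB, IL36B and TNFRSF10A-AS1 lost) and 21 with limma (IL2RB lost). Leaving out 1 library kept 20 to 22, and the losses were IL12RB1, IL2RB, CXCL1, IL17D, IL6ST and CCL20. All 4 genes below every other line were kept in each of these settings except without the second U-87MG library, when TNFRSF13C was lost. Of the 42 genes above both other lines in the 3-line table, 36 were kept with a 50-read filter, 41 with DESeq2 (CCL26 lost) and 41 without the second A-172 library (TNFSF15 lost). The 35 below fell to 31 with the filter, to 34 with DESeq2 or limma (CXCL3 lost) and to 30 to 35 without 1 library. Genes lost to the filter were not tested there.

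Over all tested genes the replicate numbers showed no sign of pairing the libraries. Deviations of same-numbered libraries correlated between -0.07 and 0.07 over 28 pairs of lines and between -0.01 and 0.02 over 3, none above 0.1. An effect shared by only part of the genes could go unseen in these correlations. With the number as a replicate block, 2088 and 4946 genes differed among lines, 21 genes (IL2RB lost) and 42 were above every other line, and 5 and 35 below. Chosen after seeing the data because their libraries differed most, leaving out T98G kept 18 genes above, its own 4 being lost by construction, with LN-18 then above for 8 in place of 5, and leaving out SNU-1105 kept all 22. Genes under about 1 FPKM rest on few reads, and 2 libraries per line limit every error.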
